A study of Mus musculus with 9 samples.

Results

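Liver-enriched transcription factors and C/EBPs were examined in bulk liver RNA from mice given an agonist CD40 antibody. These 9 genes, Hnf4a, Foxa1, Foxa2, Foxa3, Onecut1, Prox1, Cebpa, Cebpb and Cebpd, were chosen by name from the 24341 genes of the deposited table, and all 9 passed the filter on low values that left 13807 genes for testing. The livers came from wild-type (WT) C57BL/6 mice. The 3 mice of the anti-CD40 group (mice 2, 5 and 9) had received FGK45, an antibody that activates the CD40 receptor, and the 6 mice of the control group (mice 3, 4, 7, 8, 11 and 12) had not. Tissue was taken at 48 hours, and the study's methods give an age of 8 to 12 weeks for its mice unless stated otherwise. The comparison asks which liver genes changed after systemic CD40 activation.

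Hepatocytes owe their identity to a network of transcription factors that bind each other's genes and the genes of liver metabolism. HNF4A is a nuclear receptor at the center of that network, FOXA factors open chromatin at liver enhancers, and ONECUT1 and PROX1 act in liver development and in adult metabolism. C/EBPs are basic leucine zipper factors that bind related DNA sites. C/EBPα maintains metabolic genes in the quiescent hepatocyte, whereas C/EBPβ and C/EBPδ are best known for the acute phase response.

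Promoters of Cebpa, Cebpb and Foxa1 are printed first, since the results below turn on the fall of Cebpa, its balance with Cebpb, and the narrow call of Foxa1. Each sequence covers the 250 bases before an annotated start in RefSeq (GRCm38.p6, the mm10 assembly) and is written 5′ to 3′ on the strand of the gene. Capitals mark the core C/EBP motif (TTGCG) in Cebpa, the core CRE motif (TGACG) in Cebpb and the FOXA motif (TGTTTAC) in Foxa1, each searched on both strands.
Cebpa, chr7:35119043-35119292, plus strand: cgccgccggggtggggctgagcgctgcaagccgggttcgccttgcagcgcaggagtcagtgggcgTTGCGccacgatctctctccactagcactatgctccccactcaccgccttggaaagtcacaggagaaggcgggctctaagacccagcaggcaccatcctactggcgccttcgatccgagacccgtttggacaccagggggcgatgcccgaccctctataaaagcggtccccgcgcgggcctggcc
Cebpb, chr2:167688665-167688914, plus strand: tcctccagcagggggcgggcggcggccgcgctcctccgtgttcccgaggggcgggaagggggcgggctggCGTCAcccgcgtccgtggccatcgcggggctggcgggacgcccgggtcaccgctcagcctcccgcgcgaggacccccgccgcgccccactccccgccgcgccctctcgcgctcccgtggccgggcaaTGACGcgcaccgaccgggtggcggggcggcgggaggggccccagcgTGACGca
Foxa1, chr12:57546112-57546361, minus strand: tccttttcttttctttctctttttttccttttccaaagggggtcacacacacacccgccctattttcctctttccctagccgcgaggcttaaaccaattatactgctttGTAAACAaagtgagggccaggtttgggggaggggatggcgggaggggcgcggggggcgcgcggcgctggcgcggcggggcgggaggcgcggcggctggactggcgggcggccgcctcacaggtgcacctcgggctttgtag

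The Cebpa promoter held 1 C/EBP motif, at positions -185 to -181 from the start, and the Cebpb promoter held 3 CRE motifs, the nearest at -7 to -3. The Foxa1 promoter held 1 FOXA motif, at -141 to -135. Over all 32851 mouse promoters of the same length, 14.5% held the C/EBP motif, 17.8% the CRE motif and 3.17% the FOXA motif. A STAT motif (TTCNNNGAA, present in 7.02% of promoters) and an HNF4 motif (CAAAGTCCA, 0.384%) were searched as well and matched no promoter of the 8 genes used (Cebpd was not used here). The kappaB motif (7.25%) matched in Foxa3 only, and there on both strands at the same bases. An HNF1 motif (GTTAAT, 6.43%) matched in 1 promoter of Hnf4a, at -81 to -76 and -74 to -69, and in 1 of Foxa2, at -176 to -171. Promoters of Foxa2 and Foxa3 also held the C/EBP motif and that of Onecut1 the CRE motif. These matches describe letters in a window and were not tested as binding sites.

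Cebpa lay below, and Cebpd above, the whole control range in each of the 3 anti-CD40 mice, whereas the groups overlapped for Cebpb, Hnf4a, the FOXA genes, Onecut1 and Prox1. Values are in FPKM, a read number scaled to gene length and library size, and fold changes were tested with limma on log2(FPKM + 0.1) with Benjamini-Hochberg adjustment over all 13807 genes. Of the 9 genes, 3 passed an adjusted p of 0.05, Cebpd higher and Cebpa and Foxa1 lower. That is 33.3% of the 9 genes, while 45.1% of all genes tested passed (23.5% higher and 21.7% lower). Groups did not overlap for 2 of the 9 genes and for 42.4% of all genes tested (22.7% above and 19.6% below control). The median log2 fold change of the 9 genes was -0.36, against 0.0056 over all genes tested.

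**Figure D1:**
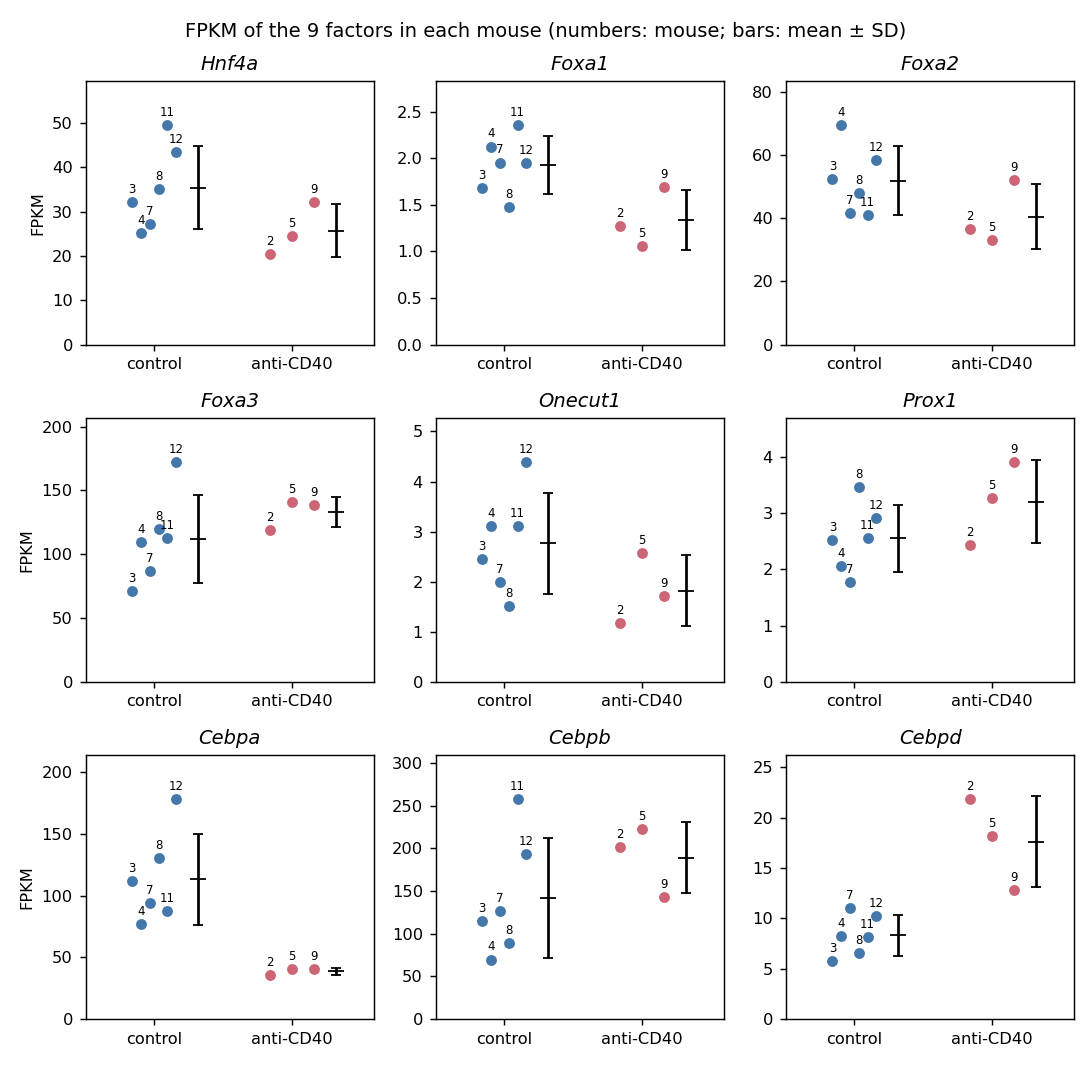
FPKM (linear axis from 0) of each of the 9 genes in 3 anti-CD40 and 6 control mice, each point numbered by mouse, with the group mean ± SD beside the points. Cebpa lies lower and Cebpd higher in all anti-CD40 mice, and the groups overlap in the other 7 genes.

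C/EBPα, which restrains proliferation and drives gluconeogenic and urea cycle genes, had the largest change of the 9 genes. Cebpa (chr7:35119293-35121931 in mm10) was at 35.6, 40.6 and 40.2 FPKM in anti-CD40 mice 2, 5 and 9, and in the 6 control mice it ranged from 77.3 to 178 with a median of 103. The anti-CD40 mice were close to each other (38.8 ± 2.78, SD, n = 3), and the control mice spread more widely (113 ± 37.0, n = 6). Cebpa fell 2.80-fold (log2 fold change -1.49, SE 0.23, limma adjusted p = 4.89e-04). The 95% interval of the log2 fold change ran from -2.0 to -0.97. With 3 mice against 6, the 2-sided exact permutation test can give no p below 0.0238, and Cebpa reached that value.

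The same livers held less RNA of hepatocyte markers and more of neutrophil markers. The summed FPKM of 14 hepatocyte genes reached 5140 to 6171 after anti-CD40 and 11948 to 14988 in control mice. None was at the lowest listed value in all mice. Of the 14 genes, 13 fell, while 21.7% of all genes tested did, and the median log2 fold change of the list was -1.22. The interval of Cebpa includes that median, and the part of hepatocyte RNA content in its fall was not tested. In bulk liver, fewer hepatocytes and less RNA of these marker genes per hepatocyte cannot be told apart. Not every liver gene fell, and of 15 acute phase targets given below, 14 rose, while 23.5% of all genes tested did. With Saa1, Saa2 and Saa3 left out and the rest rescaled to the same total, the log2 fold change of Cebpa was -1.12 (limma adjusted p = 0.00128). Adipocytes also express Cebpa, and the summed FPKM of 5 adipocyte genes was 54.0 and 58.0 in control mice 4 and 7 but 1.36 to 7.10 in the other 7 mice. Cebpa was at 77.3 and 93.7 FPKM in mice 4 and 7 and at 87.9 to 178 in the other control mice, and the part of adipocyte RNA in these levels was not tested.

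Cebpd, encoding C/EBPδ, rose after anti-CD40. Anti-CD40 mice 2, 5 and 9 had 21.8, 18.2 and 12.8 FPKM, and control mice ranged from 5.80 to 11.1 with a median of 8.18. The lowest anti-CD40 mouse (12.8) was just above the highest control mouse (11.1). Cebpd was 2.11-fold higher (log2 fold change 1.07, SE 0.23, interval 0.56 to 1.58, limma adjusted p = 0.00333, exact permutation p = 0.0238). The row of Cebpd in the table spans chr16:15887286-16146851 and is shared with Spidr, a DNA repair gene on the opposite strand. Spidr was near the floor in both groups (mean 0.142 against 0.124 FPKM) and did not pass the test (log2 fold change 0.17, limma adjusted p = 0.706).

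C/EBPβ takes part in both the acute phase response and liver regeneration. Cebpb (chr2:167688915-167690432, a single exon) was at 201, 223 and 143 FPKM in anti-CD40 mice 2, 5 and 9. In control mice it ranged from 69.6 to 258 with a median of 121. The highest value of all 9 mice was in control mouse 11, and the control mice spread 3.70-fold. The difference was smaller than this spread and did not pass the test (189 ± 41.6 against 142 ± 70.8 FPKM, log2 fold change 0.53, SE 0.37, limma adjusted p = 0.27, exact permutation p = 0.262). Its interval, -0.29 to 1.35, includes no change as well as a rise of the size seen for Cebpd. Under quantile normalization Cebpb passed as higher (0.96, limma adjusted p = 0.0402).

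Cebpb and Cebpd are also expressed by myeloid cells, and myeloid markers rose in these livers. All 8 neutrophil genes tested rose, while 23.5% of all genes tested did. The summed FPKM over the neutrophil genes was 4219 to 5206 in anti-CD40 mice and 18.3 to 156 in control mice. Of 9 monocyte and macrophage genes, 6 rose and Adgre1 fell, and their sum was 318 to 436 against 46.9 to 81.5. All 5 Kupffer cell genes fell, while 21.7% of all genes tested did. The Kupffer cell sums were 268 to 425 in control mice and 37.2 to 48.1 in anti-CD40 mice. The part of infiltrating cells in the levels of Cebpb and Cebpd, and in that of Cebpa, was not tested.

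The balance between C/EBPs was compared within each mouse, where scaling between libraries cancels. Anti-CD40 mice 2, 5 and 9 had ratios of Cebpb to Cebpa FPKM of 5.65, 5.49 and 3.55, compared with 0.684 to 2.93 with a median of 1.06 in control mice. The highest control ratio, in mouse 11, stayed below the lowest anti-CD40 ratio, although Cebpb alone overlapped. The mean log2 ratio was 2.26 ± 0.377 (SD, n = 3) against 0.24 ± 0.719 (n = 6), a difference of 2.02. For Cebpd to Cebpa the anti-CD40 ratios were 0.613, 0.448 and 0.319, compared with 0.050 to 0.118 with a median of 0.0727 in control mice. Gene length enters the level of such a ratio but not its difference between mice. The ratios were taken after Cebpa had been seen to fall and are given without a test. In bulk liver the RNAs of a ratio may come from different cells. Hepatocyte marker sums fell and neutrophil marker sums rose as given above, and the part of cell mixture in these ratios was not tested.

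**Figure D2:**
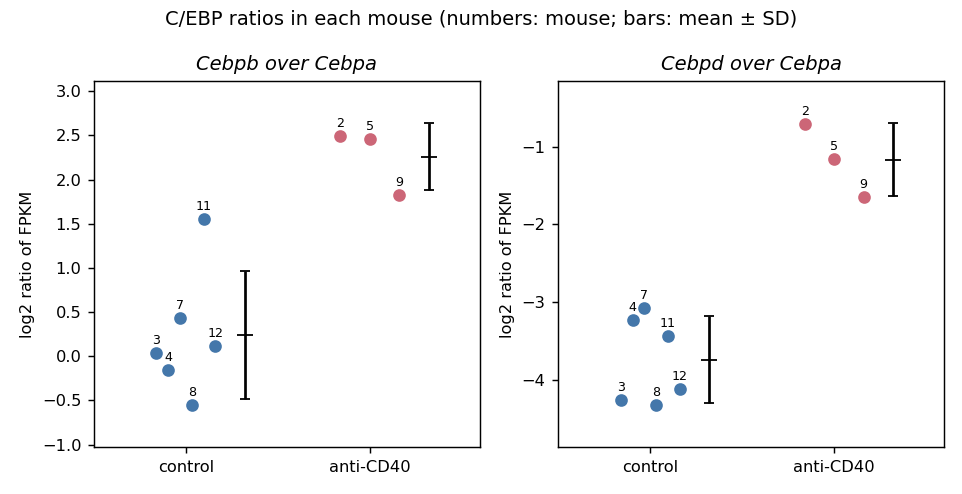
Ratios of Cebpb to Cebpa and of Cebpd to Cebpa FPKM on a log2 scale, 1 point per mouse, with the mean ± SD of each group beside the points. Both ratios separate the 3 anti-CD40 mice (higher) from the 6 control mice.

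Of 12 relatives and regulators of C/EBPs, 1 rose and 1 fell, while 45.1% of all genes tested passed, and the median log2 fold change was 0.060. Ddit3, encoding CHOP, a stress-induced C/EBP relative that blocks DNA binding of its partners, was at 48.9, 64.3 and 40.2 FPKM in anti-CD40 mice 2, 5 and 9, and at 11.3 to 21.6 (median 16.9) in control mice. Ddit3 rose without overlap (log2 fold change 1.63, SE 0.24, limma adjusted p = 3.32e-04), and it shares its table position with another gene. Cebpe, a granulocyte C/EBP, fell (1.31, 2.14 and 1.40 FPKM against 1.95 to 4.78, log2 fold change -0.995, SE 0.27, limma adjusted p = 0.0116), while the neutrophil markers rose as given above. Its call was lost without anti-CD40 mouse 2 or 9 and after rescaling without the serum amyloid genes. That rescaling gave 4 higher and 0 lower genes in this list, quantile normalization gave 2 higher, and without control mouse 4 a second relative passed in each direction.

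None of the other 10 relatives and regulators passed the test. Cebpg, a dimer partner, had a log2 fold change of -0.11, and so did Atf4, the stress factor upstream of Ddit3. The Tribbles genes Trib1, Trib2 and Trib3, of which Trib1 and Trib2 are known to promote C/EBPα degradation, had log2 fold changes of 0.24, 0.21 and -0.50. Among inhibitors of helix-loop-helix factors, Id1 had 0.79 (limma adjusted p = 0.0851), Id2 0.33 and Id3 -0.37. Nfil3, a related leucine zipper repressor, had 0.03, and Celf1, an RNA-binding protein linked to C/EBP translation, had 0.09.

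Most genes of the signals known to induce C/EBPβ and C/EBPδ rose. Of 13 genes, 11 rose and 1 fell, while 23.5% of all genes tested rose and 21.7% fell, and the median log2 fold change was 1.07. Osm, a cytokine of the IL-6 family, was at 0.395 to 0.663 FPKM in anti-CD40 mice and at or below 0.0854 in control mice (log2 fold change 2.26), its receptor Osmr had 2.09 and Tnf 3.90. Nr3c1, the glucocorticoid receptor, fell (-0.49), and Il6ra did not pass the test (-0.57). The call of Nr3c1 was lost without any 1 of the anti-CD40 mice and after rescaling without the serum amyloid genes. Among the genes that rose, the call of Il1b held in 10 of 19 alternatives and that of Creb1 in 12.

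HNF4A itself was not shown to change. Hnf4a was at 20.4, 24.5 and 32.2 FPKM in anti-CD40 mice 2, 5 and 9, and ranged from 25.2 to 49.5 with a median of 33.7 in control mice. The groups overlapped, with anti-CD40 mouse 9 within the control range. The log2 fold change was -0.44 (SE 0.23, limma adjusted p = 0.139, exact permutation p = 0.119), and its interval of -0.95 to 0.063 includes both no change and a fall of 0.95. The row of Hnf4a (chr2:163547188-163572907) starts at the P1 promoter side. Longer annotated transcripts from the upstream P2 promoter lie partly outside it, and reads from the 3′ end cannot tell the promoters apart.

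An antisense transcript upstream of Hnf4a fell in all 3 anti-CD40 mice. Hnf4aos, a noncoding RNA on the opposite strand (row chr2:163492318-163541721), was at 2.98, 3.01 and 4.53 FPKM in anti-CD40 mice 2, 5 and 9. Control mice had 13.7 to 45.7 with a median of 26.1, so the lowest control mouse was above the highest anti-CD40 mouse by a wide margin. The log2 fold change was -2.97 (SE 0.33, limma adjusted p = 5.51e-05, exact permutation p = 0.0238), a 7.84-fold fall. Hnf4aos was looked up after values of Hnf4a had been seen. It overlaps the long Hnf4a transcripts and shares its table position with R3hdml, and the strand setting of the counting is not given in the sources used here, so reads of these genes may have been mixed.

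**Figure D3:**
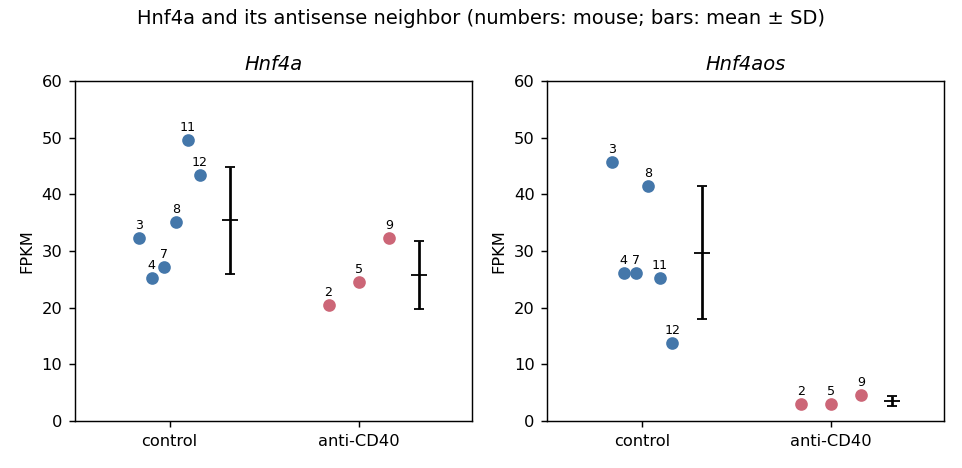
FPKM (linear axis from 0) of Hnf4a and of Hnf4aos, 1 point per mouse, with the group mean ± SD beside the points. Hnf4a overlaps between groups, and the 3 anti-CD40 values of Hnf4aos lie under the control range.

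Foxa1 passed the test narrowly and Foxa2 and Foxa3 did not, although Foxa3 passed as higher under quantile normalization (0.70) and after rescaling without the serum amyloid genes (0.66). Foxa1 was at 1.27, 1.06 and 1.69 FPKM in anti-CD40 mice 2, 5 and 9 and at 1.47 to 2.36 with a median of 1.95 in control mice. Anti-CD40 mouse 9 lay within the control range. The log2 fold change was -0.50 (SE 0.19, interval -0.91 to -0.088, limma adjusted p = 0.0493, exact permutation p = 0.0714). This call was lost in 13 of 19 alternative analyses, among them those without anti-CD40 mouse 2 (adjusted p = 0.138) or mouse 5 (0.21). Foxa1 was the least deeply measured gene, with an estimated 55.3 to 62.4 reads in the mouse with the fewest.

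Foxa2, which acts with Foxa1 in liver specification, was at 36.5, 33.0 and 52.1 FPKM in anti-CD40 mice and 40.9 to 69.6 (median 50.3) in control mice. The groups overlapped, and the log2 fold change of -0.36 did not pass the test (SE 0.20, interval -0.79 to 0.085, limma adjusted p = 0.17). Foxa3, the family member most expressed in adult liver, was at 119, 141 and 138 FPKM in anti-CD40 mice and 71.4 to 172 (median 111) in control mice. All anti-CD40 values of Foxa3 lay within the control range (log2 fold change 0.30, SE 0.23, interval -0.22 to 0.81, limma adjusted p = 0.326).

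Onecut1, encoding HNF6, and Prox1 overlapped as well. Onecut1 was at 1.17, 2.58 and 1.72 FPKM in anti-CD40 mice and 1.52 to 4.39 (median 2.78) in control mice. Its log2 fold change was -0.57 with the interval -1.28 to 0.15 (SE 0.32, limma adjusted p = 0.18). Onecut1 is also a pancreatic gene, and the highest of the 3 anti-CD40 values was in mouse 5, whose summed FPKM of 13 pancreas genes was 1068 against 28 to 190 in the other mice. Amy2a5 was at the lowest listed value in all mice. Without mouse 5 the log2 fold change of Onecut1 was -0.84, which did not pass the test (limma adjusted p = 0.0904). Among control mice, mouse 7 had the highest pancreas sum (190) with Onecut1 at 2.00 FPKM, and mouse 12 had a sum of 112 with Onecut1 at 4.39. The part of pancreas RNA in the level of Onecut1 was not tested.

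Prox1 was at 2.44, 3.28 and 3.91 FPKM in anti-CD40 mice and 1.78 to 3.47 (median 2.54) in control mice (log2 fold change 0.33, SE 0.22, interval -0.16 to 0.81, limma adjusted p = 0.251). After rescaling without the serum amyloid genes Prox1 passed as higher (0.68). PROX1 also defines lymphatic endothelium. Of 6 markers of that tissue, 3 rose (Lyve1, Pdpn and Flt4) and 1 fell (Reln), while 23.5% of all genes tested rose and 21.7% fell. Ccl21a and Mmrn1 did not pass the test, and the median log2 fold change of the list was 0.23. The marker sums were 49.6 to 61.0 FPKM in anti-CD40 mice and 19.1 to 39.2 in control mice. Of 6 markers of liver sinusoidal endothelium, 1 rose (Fcgr2b) and 3 fell, against the same shares of all genes. Their sums were 64.4 to 68.8 FPKM in anti-CD40 mice and 86.3 to 108 in control mice. Whether the lymphatic sums reflect more of that tissue, and the part of lymphatic endothelium in the level of Prox1, was not tested. The row of Prox1 ends 3742 bases short of the 3′ end in GENCODE and RefSeq, and that of Onecut1 2134 bases short in GENCODE but 1 base short in RefSeq. Reads from the 3′ end may fall beyond these rows.

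**Figure D4:**
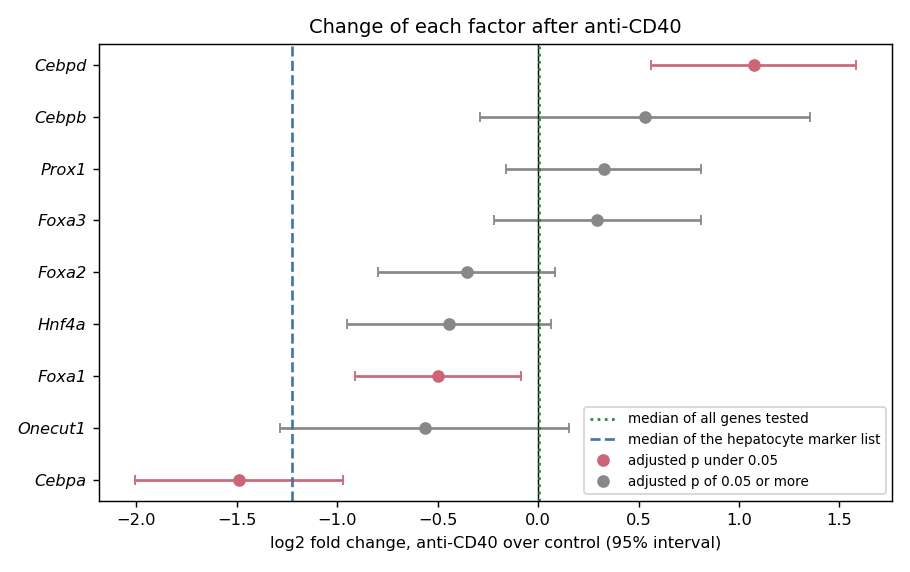
Log2 fold change (anti-CD40 over control, log2(FPKM + 0.1) scale) of each of the 9 genes with its 95% interval. The intervals of Cebpa, Cebpd and Foxa1 exclude 0, and a dashed line marks the median of the 14 hepatocyte markers (-1.22).

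Other liver-enriched transcription factors more often fell than rose. Of 24 genes, 9 fell and 1 rose, with a median log2 fold change of -0.56, while 21.7% of all genes tested fell. Mlxipl, the carbohydrate-responsive factor ChREBP, fell from 28 to 39.4 FPKM in control mice to 11.0, 9.99 and 10.9 (log2 fold change -1.60). Tef, a circadian leucine zipper factor, fell by 2.19 and Nr1i3, the xenobiotic receptor CAR, fell by 2.38 on the log2 scale, and the row position of Nr1i3 is shared by 3 genes. Gata6 rose (1.33) and shares its row position with another gene.

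Known target genes of these factors were counted beside them. Of 29 HNF4A targets, 21 fell and 4 rose, while 21.7% of all genes tested fell and 23.5% rose, and the median log2 fold change was -0.997. The bile acid carrier Slc10a1 (-2.38) and the apolipoprotein Apoa2 (-2.18) fell furthest together with Nr1i3, and Apoa2 and Nr1i3 share 1 table position, so their reads may be mixed. In contrast, Apoa4 (1.52), F11 (0.76) and Apob (0.74) rose. Without anti-CD40 mouse 5, 1 HNF4A target rose instead of 4, and without anti-CD40 mouse 2 or 9 or control mouse 3, 2 rose. Over the alternatives 15 to 23 HNF4A targets fell. The count was 15 without anti-CD40 mouse 2, with no filter, under quantile normalization or after rescaling without the serum amyloid genes. Against the same shares of all genes, 5 of 8 FOXA targets fell, led by Alb (-2.43) and Ttr (-1.96), and 2 rose, Igfbp1 (2.56) and Afp (0.65). Leaving out any 1 anti-CD40 mouse or control mouse 7 or 11 left 1 FOXA target higher, and 3 fell without anti-CD40 mouse 2, with no filter, under quantile normalization or after rescaling without the serum amyloid genes.

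Of 10 metabolic targets of C/EBPα, 8 fell and none rose, with a median log2 fold change of -0.94, while 21.7% of all genes tested fell. Alb fell from 4063 to 6626 FPKM in control mice to 774 to 1075 in anti-CD40 mice, and Otc, a urea cycle enzyme, fell by 1.78 on the log2 scale. Ugt1a1, with the largest fitted change (-4.18), is 1 of 9 genes at the same table position and was at the lowest listed value in anti-CD40 mouse 9, so its value is uncertain. Leaving out anti-CD40 mouse 2, or control mouse 3, 11 or 12, left 5 that passed, as did quantile normalization. With no filter, or after rescaling without the serum amyloid genes, 4 passed. Tat and Arg1 did not pass the test. Of 15 acute phase targets of C/EBPβ and C/EBPδ, 14 rose, while 23.5% of all genes tested did, with a median log2 fold change of 2.78. Saa3 (8.62), Saa2 (8.60) and Lcn2 (8.38) rose most, and Crp did not pass the test (0.17). The target lists share genes with each other and with the hepatocyte markers, Lcn2 is also a neutrophil granule gene, and none of these counts measures the activity of a factor.

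**Figure D5:**
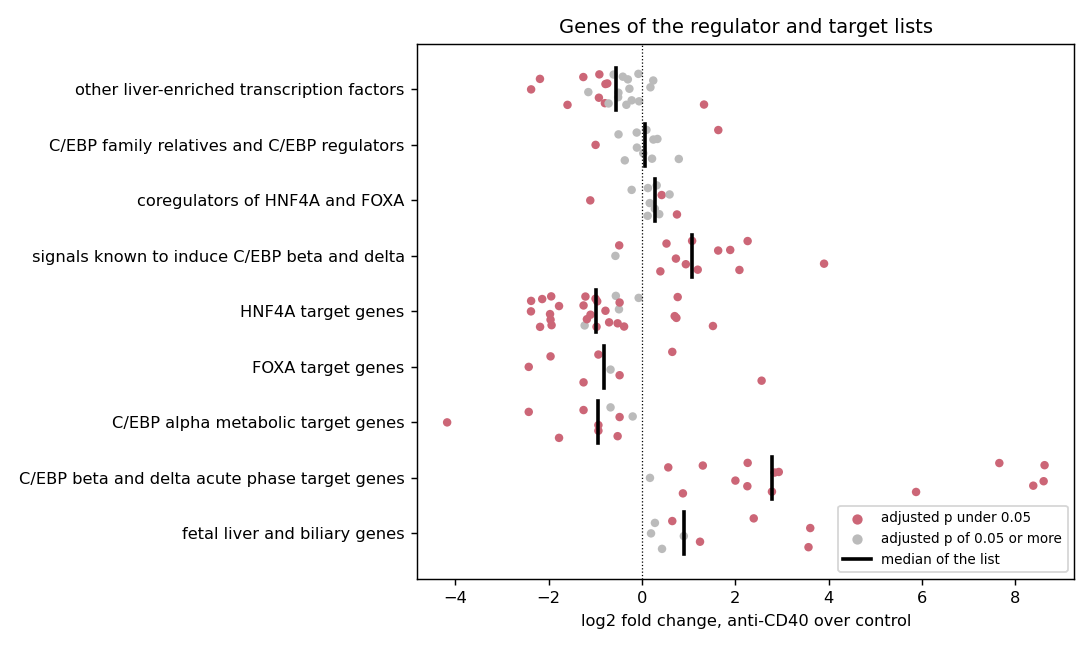
Log2 fold changes of the genes of each regulator and target list, 1 point per gene, with a bar at the list's median and called genes in red. Acute phase targets lie to the right of 0, and most HNF4A and C/EBPα targets lie to the left.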

How the data were processed

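RNA was extracted from the livers of 9 mice. Libraries were made with the QuantSeq 3′ mRNA kit (FWD) and sequenced on a NextSeq 500. Per the labels and the study's methods, the authors aligned reads to mm10 with STAR and computed FPKM with Cufflinks and CuffDiff. The deposited FPKM table holds 24341 genes with 1 column per mouse, and its lowest value is 0.01. The annotation and strand setting are not given in the sources used here. FPKM divides by gene length although 3′ tags do not scale with it, so levels were not compared between genes.

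After 15 genes with a failed estimate were left out, 13807 genes with a mean of at least 0.1 FPKM were tested with limma 3.58.1 (R 4.3.3; lmFit, eBayes with trend) on log2(FPKM + 0.1), 2-sided, anti-CD40 against control. The pseudocount understates changes of low genes. Single genes were also tested by exact permutation over the 84 splits. Mice were grouped by the treatment label, and the labels do not say whether mice shared a cage or a day. The fit was tested on simulated data in which 200 of 13807 genes were changed. It recovered 56% of the genes changed by 1 on the log2 scale and 95% of those changed by 2, with 5 false calls. Far fewer genes changed in the simulation than passed here, so recovery in these data may differ. Total reads per mouse are unknown. From low values, 83.4% of 3183 genes were whole multiples of 1 read within 0.06 reads, and the FPKM worth of 1 read ranged over the mice from 0.884 to 1.15, set against their geometric mean. Read numbers were estimated with a value of 0.0564 FPKM for 1 read per kilobase.

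The 9 genes and all lists were chosen with earlier results of these data known. Named were the 9 genes, all C/EBP relatives, and up to 3 genes per direction with the largest called change in each other list. Hnf4aos, Spidr, Tat, Arg1, Crp, Il6ra, Il1b and Creb1 were named after their values were seen. Alternatives changed the pseudocount, filter, normalization, model options and the mice included.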

Additional observations from a re-analysis of the deposited data

How the results depend on the processing

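Cebpa and Cebpd kept their direction and passed the threshold in all 19 alternatives, with log2 fold changes of -1.62 to -1.12 and 0.90 to 1.44. Of 171 alternative values of the 9 genes, 153 kept direction and side of the threshold. The fall of Foxa1 no longer passed with a pseudocount of 1 (-0.32, limma adjusted p = 0.0510), with no filter (-0.50, 0.0896), with a mean of at least 1 FPKM (-0.50, 0.0519) or with median of ratios scaling (-0.50, 0.0501). Leaving out 1 mouse gave Foxa1 values of -0.67 to -0.36, and 7 of 9 lost the call, those without anti-CD40 mice 2 or 5 or control mice 3, 4, 7, 11 or 12. Without both anti-CD40 mouse 5 and control mouse 4, which stand apart in pancreas and erythroid markers (an alternative chosen after seeing the data), Foxa1 had -0.33, 2 of the 9 genes passed, and Cebpa (-1.62) and Cebpd (1.04) still did. Under quantile normalization 5 genes passed, with Foxa3 (0.70) and Cebpb (0.96) higher. Leaving out Saa1, Saa2 and Saa3 and rescaling moved the median of all genes to 0.35 and the calls to 5635 higher and 1647 lower, against 3240 and 2990. Foxa3 (0.66) and Prox1 (0.68) then passed, Foxa1 (-0.16) did not, and Foxa2 changed sign (0.010). This rescaling multiplies all genes of a mouse by a single factor, and the median shift of the 9 genes was 0.37. Which scaling is closer to the RNA amounts was not tested. No paired analysis was possible because the groups share no mouse numbers. With 3 anti-CD40 mice, the intervals of the 6 genes that did not pass allow changes of the size seen for Foxa1.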

Other observations

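Fetal liver and biliary genes were measured as well. Of 9 such genes tested, 5 rose and none fell, with a median log2 fold change of 0.90, while 23.5% of all genes tested rose. Sox9, a biliary and progenitor factor, was at 64.8, 49.3 and 48.5 FPKM in anti-CD40 mice 2, 5 and 9 and at 3.17 to 8.23 in control mice (log2 fold change 3.57). H19, an imprinted fetal RNA, rose by 3.6 and Spp1, encoding osteopontin, by 2.39 on the log2 scale. The biliary keratins Krt7 and Krt19 did not pass the test, and neither did Epcam or Sox4. Leaving out any 1 anti-CD40 mouse, or control mouse 7 or 11, left 3 that passed, as did no filter or a mean of at least 1 FPKM. Myeloid markers rose in these livers as given above, and the part of infiltrating cells in the levels of these genes was not tested.

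Of 11 coregulators of HNF4A and FOXA tested, Ep300 (0.75) and Ncoa3 (0.42) rose and Ppargc1b (-1.11), a mitochondrial coactivator, fell, while 45.1% of all genes tested passed. After rescaling without the serum amyloid genes, 7 were higher and 0 lower, and under quantile normalization 1 was higher. The calls held in 11 of 19 alternatives for Ncoa3 and in 13 for Ppargc1b. They were lost for Ncoa3 without any 1 anti-CD40 mouse or control mouse 3 or 7, and for Ppargc1b without anti-CD40 mouse 2 or 5 or control mouse 8 or 11.

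Among 10146 genes with a mean of at least 1 FPKM, those whose log2(FPKM + 0.1) followed Cebpa most closely over the 9 mice were Xkr8 (Pearson's r = 0.991), Tmem205 (0.987) and Acy3 (0.985). Nploc4 (0.969), Ogdh (0.966) and Stx16 (0.957) were nearest to Hnf4a, and Rab30 (0.933), Sec11a (0.930) and Dclre1b (0.925) to Cebpb. The points share the treatment groups. Among the 6 control mice alone, 1 of 36 pairs of the 9 genes had an unadjusted permutation p under 0.05, Hnf4a with Cebpb (Pearson's r = 0.854, p = 0.0417, adjusted p = 0.806; Spearman's rho = 0.771, p = 0.103). Without the 2 mice farthest from the median of Hnf4a, r was 0.515.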
